A study of Mus musculus with 12 samples.

Results

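The 10 chemokine ligand genes described here, Cxcl2, Cxcl16, Ccl22, Ccl17, Ccl4, Ccl3, Ccl20, Cxcl14, Ccl2 and Ccl27a, were taken by symbol from the 32285 genes of a single-cell RNA-seq series of mouse hind paw epidermis. The series holds 12 libraries of wild-type C57BL/6J mice, 3 each from males on a regular diet (RD, 11% fat), males on a high-fat diet (HFD, 42% fat), females on RD and females on HFD. Feeding began at 6 to 8 weeks of age and lasted 10 weeks, so that the mice were 16 to 18 weeks old, and no group received a drug. The diets were compared to ask which epidermal cells change in mice that model the painful neuropathy of diabetes, and here the question is which cells hold each ligand and whether its level differed between HFD and RD.

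Chemokines are small secreted proteins that steer migrating leukocytes through G protein-coupled receptors, and CC and CXC ligands are told apart by the spacing of their first cysteines. In epidermis, keratinocytes and the resident Langerhans cells (LCs), antigen-presenting cells that carry langerin (Cd207), both make them. Several are immediate targets of NF-kB and are induced within hours by cytokines, microbial products or cell stress, while others are made by resting epithelium.

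The 12 libraries held 134449247 to 194673581 UMIs (unique molecular identifiers, each standing for 1 captured transcript) in males and 135683082 to 173907390 in females. After the cell filters 62147 male and 64228 female cells were kept. Pairs of libraries shared 0.204% to 0.564% of the barcodes of the smaller library. The headers name Cell Ranger 6.1.0 in every male file and 7.2.0 in every female file, so sex and counting software cannot be told apart, and levels are given for each sex without a comparison of the sexes. Clusters were named from marker genes with every chemokine ligand left out of the clustering. LC-like cells, which held all 9 LC markers including Cd207 (2827 CPM in males, counts scaled to 1000000 UMIs of the class), numbered 1314 in males (130 to 424 per mouse) and 2122 in females (278 to 461). T cell-like cells were few, with 211 in males (28 to 56 per mouse) and 331 in females (31 to 87). The keratinocyte classes were basal, proliferating, migratory, suprabasal or spinous, terminally differentiated and a volar class with Krt9. The clusters led by Wfdc17 and Lars2 in males and by Lhx2 in females stayed unnamed. The Wfdc17 cluster held 7 of 8 suprabasal or spinous markers, but none was among its leading genes, which included Ivl, a marker of terminally differentiated cells.

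The members fell into those whose transcripts came mainly from LC-like cells (Cxcl2, Ccl22, Ccl17, Ccl4 and Ccl3), those that came mainly from keratinocytes (Ccl20, Cxcl14, Ccl2 and Ccl27a) and Cxcl16, which was high per LC-like cell and yet mostly of keratinocyte origin by count. Promoters are printed for the pair of members in which the annotated promoter held a sequence match to NF-kB before the gene's start, Cxcl2 and Ccl20. They are also printed for Ccl17 and Ccl22, which both lie on chromosome 8 and were high in the same small LC state. The sequences are RefSeq's, on build GRCm38.p6 and the plus strand, end at the base before the annotated start of the gene and run 5′ to 3′, with the NF-kB match in capitals.

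Cxcl2, chr5:90903649-90903870: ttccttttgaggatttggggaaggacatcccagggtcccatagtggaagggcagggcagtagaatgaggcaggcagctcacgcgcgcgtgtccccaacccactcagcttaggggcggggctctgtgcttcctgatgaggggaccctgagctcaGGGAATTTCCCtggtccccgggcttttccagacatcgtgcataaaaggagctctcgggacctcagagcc
Ccl20, chr1:83116516-83116765: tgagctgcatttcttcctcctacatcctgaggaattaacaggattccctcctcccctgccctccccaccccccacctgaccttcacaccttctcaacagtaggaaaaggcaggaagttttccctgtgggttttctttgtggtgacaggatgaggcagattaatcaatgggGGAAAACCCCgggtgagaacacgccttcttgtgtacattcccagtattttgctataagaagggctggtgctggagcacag
Ccl17, chr8:94810203-94810452: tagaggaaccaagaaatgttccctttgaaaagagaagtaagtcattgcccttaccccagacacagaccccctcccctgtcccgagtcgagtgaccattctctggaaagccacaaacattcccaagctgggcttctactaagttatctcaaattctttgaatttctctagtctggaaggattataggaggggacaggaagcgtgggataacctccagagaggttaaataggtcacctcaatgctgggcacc
Ccl22, chr8:94745434-94745589: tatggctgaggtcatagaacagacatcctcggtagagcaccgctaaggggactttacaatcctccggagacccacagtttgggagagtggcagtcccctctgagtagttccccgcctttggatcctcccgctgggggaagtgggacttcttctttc

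Promoter windows (250 bases before to 50 after a start) were listed for 7 of the 10 members, and none was listed for Ccl2, Ccl4 and Cxcl16. The NF-kB motif, 10 bases searched on both strands, matched at -80 from the start of Ccl20. In Cxcl2 it matched at -69 and, on the other strand, at -68 from the gene's annotated start, where the printed sequence ends, and these overlapping matches form 1 run of letters. RefSeq's window for Cxcl2 is built on a start 28 bases further on, from which the same matches lie at -97 and -96. Another match lay 30 bases after an internal start of Ccl27a. The same motif occurred in 4.51% of 32851 mouse promoters of that length. The windows of Ccl17 and Ccl22 held no match to it. These are matches of letters, and no binding of a factor was measured in the series. On the files' build, GRCm38, the genes lie at chr5:90903871-90905938 (Cxcl2), chr1:83116766-83119167 (Ccl20), chr11:70453983-70459984 (Cxcl16), chr11:82035571-82037453 (Ccl2), chr11:83647844-83649355 (Ccl3), chr11:83662584-83664683 (Ccl4), chr13:56288643-56296551 (Cxcl14) and chr4:41769467-41774247 (Ccl27a).

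Cxcl2, a neutrophil attractant that signals through CXCR2, was high in LC-like cells and low elsewhere. Its mean level in LC-like cells was 3189.6 ± 717 CPM in males (SD, n = 6, 3 on each diet, range 2325 to 4472) and 2861 ± 786 CPM in females (n = 6, 1726 to 4151). Each CPM value is the gene's UMIs per 1000000 UMIs of that class in that mouse. At least 1 Cxcl2 UMI was found in 91.4% of male and 86.7% of female LC-like cells, which had median depths of 4544 and 6731 UMIs. T cell-like cells held 169 ± 147 CPM in males and 68.1 ± 46.5 in females, and the named keratinocyte classes together held 7.15 ± 2.38 and 14.0 ± 8.43. The LC-like range lay apart from the next class, T cell-like cells, in both sexes. With every cell thinned to 2000 UMIs, the share of cells with a Cxcl2 UMI was 83.2%, 6.67% and 0.881% in male LC-like, T cell-like and keratinocyte classes, and 74.7%, 6.32% and 1.70% in females. Thinning left out 49, 166 and 506 shallower cells in males and 48, 62 and 1570 in females.

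Free transcripts in the droplets can give UMIs in cells that do not make a gene, and Cd74, an antigen-presentation gene of LCs, was used as the yardstick. Cd74 itself was seen in 8.06% of male and 10.6% of female T cell-like cells, close to the 8.53% and 8.46% with a Cxcl2 UMI, and no expression of Cxcl2 in T cell-like cells was read from that share. By level, T cell-like cells held 398 CPM of Cd74 in males and 27.8 in females, beside 169 and 68.1 of Cxcl2. LC-like cells held 16959 and 17092 CPM of Cd74, far above their Cxcl2. The part of free transcripts in T cell-like cells was not tested. In LC-like cells there were 0.191 Cxcl2 UMIs per Cd74 UMI in males and 0.170 in females. The same ratio was 1.45 and 2.21 over the keratinocyte classes together, but 0.241 and 0.367 in terminally differentiated cells, nearer to that of LC-like cells. LC-like cells supplied 83.5% ± 3.79 of all Cxcl2 UMIs in males and 81.4% ± 10.2 in females, where this and the class shares of the other ligands are means of 6 mice.

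Ccl22 and Ccl17 are both ligands of CCR4, a receptor of skin-homing and regulatory T cells, and their genes lie at chr8:94745590-94751699 and chr8:94810453-94812036. Ccl22 reached 230 ± 110 CPM in male and 183 ± 66.9 in female LC-like cells, and no UMI of it was found in T cell-like cells, which allows up to 8.80 CPM in males and 1.90 in females over the class. Ccl17 reached 55.9 ± 48.7 and 64.6 ± 68.0 CPM in LC-like cells. Both were concentrated in the Ccr7+ LC-like state, a small cluster with Ccr7, Fscn1 and Il4i1 and thus markers of migrating dendritic cells. That state had 14 cells in 5 male mice and 42 cells in 6 female mice, so each mouse's value rests on 1 to 10 cells. Its Ccl22 level was 13230.5 ± 3192 CPM in males (9434 to 17913) and 5760.0 ± 1129 in females (4517 to 7477). Il1b+ LC-like cells of males held 236 ± 41.9 CPM and Zeb1+ LC-like cells of females 124 ± 45.9. Ccl17 was more variable in the Ccr7+ state, at 5236 ± 3460.2 CPM in males (237 to 9086) and 2231 ± 3136 in females (102 to 8466). The highest female value was that of HFD 2, and the female mean without it was 984. Pooled over mice, the Ccr7+ state gave 38.4% of male and 47.9% of female Ccl22 UMIs, and 54.9% and 49.7% of those of Ccl17. The share of Ccl17 ran from 0% to 79.8% between male mice and from 2.86% to 77.3% between female mice. Cells with a Ccl17 UMI also had a Ccl22 UMI in 64.2% of male cases, against 30.4% of all LC-like cells, and in 62.7% against 25.1% in females. These shares are not corrected for the depth of single cells.

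Ccl4 and Ccl3 attract monocytes and T cells. Ccl4 stood at 138 ± 72.3 CPM in male and 51.5 ± 24.3 in female LC-like cells, and Ccl3 at 21 ± 14.3 and 26.6 ± 13.3. Their UMIs came from LC-like cells to 96.2% and 98.6% for Ccl4 and to 83.1% and 88.3% for Ccl3. Within LC-like cells, with UMIs pooled over mice, the Hspa1a+ state gave 59.5% of male Ccl4 UMIs and 80.6% of those of Ccl3. This state was led by the heat shock genes Hspa1a, Hspa1b and Hsph1. In females its shares were 35.6% and 37.9%, beside 32.2% and 29.2% from the larger Zeb1+ state. Female RD 1 was far above the other mice for Ccl3 in Hspa1a+ cells (381 CPM against at most 94.5), and the Ccl3 shares without it were not computed. Ccl4 reached 448 ± 174 CPM there in males and 187 ± 81.0 in females, against 42.8 in male Il1b+ and 41.9 in female Zeb1+ cells. In the 53 male Cenpe+ cells it averaged 456 ± 702, where 1 mouse held 1835 RD 3, and the mean without it was 180. Ccl3 in Hspa1a+ cells was at 93.5 ± 62.3 CPM in males (13.2 to 167), against 2.09 in Il1b+ cells. In females it was at 381, 94.5 and 35.3 CPM on RD and at 15.1, 60.7 and 93.6 on HFD, a mean of 113 ± 135, or 59.9 without RD 1, against 18.0 in Zeb1+ cells. Cells with a Ccl3 UMI had a Ccl4 UMI in 36.5% of male and 43.1% of female cases, while 10.3% and 7.45% of all LC-like cells did. Cxcl2 was also higher in male Hspa1a+ cells (8201 ± 2073 CPM) than in Il1b+ cells (3257 ± 418). Female Hspa1a+ cells held 3534 ± 781 CPM, close to the 3675 ± 967 in Zeb1+ and 3712 in Lgals1+ cells. Female Cenpe+ cells held 4164, Ccr7+ cells 2761 (1598 without HFD 3) and the subcluster with keratinocyte transcripts 1162. Heat shock genes are known to respond to cell isolation as well as to stress in tissue, and the part of cell isolation in these values was not tested.

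**Figure D1:**
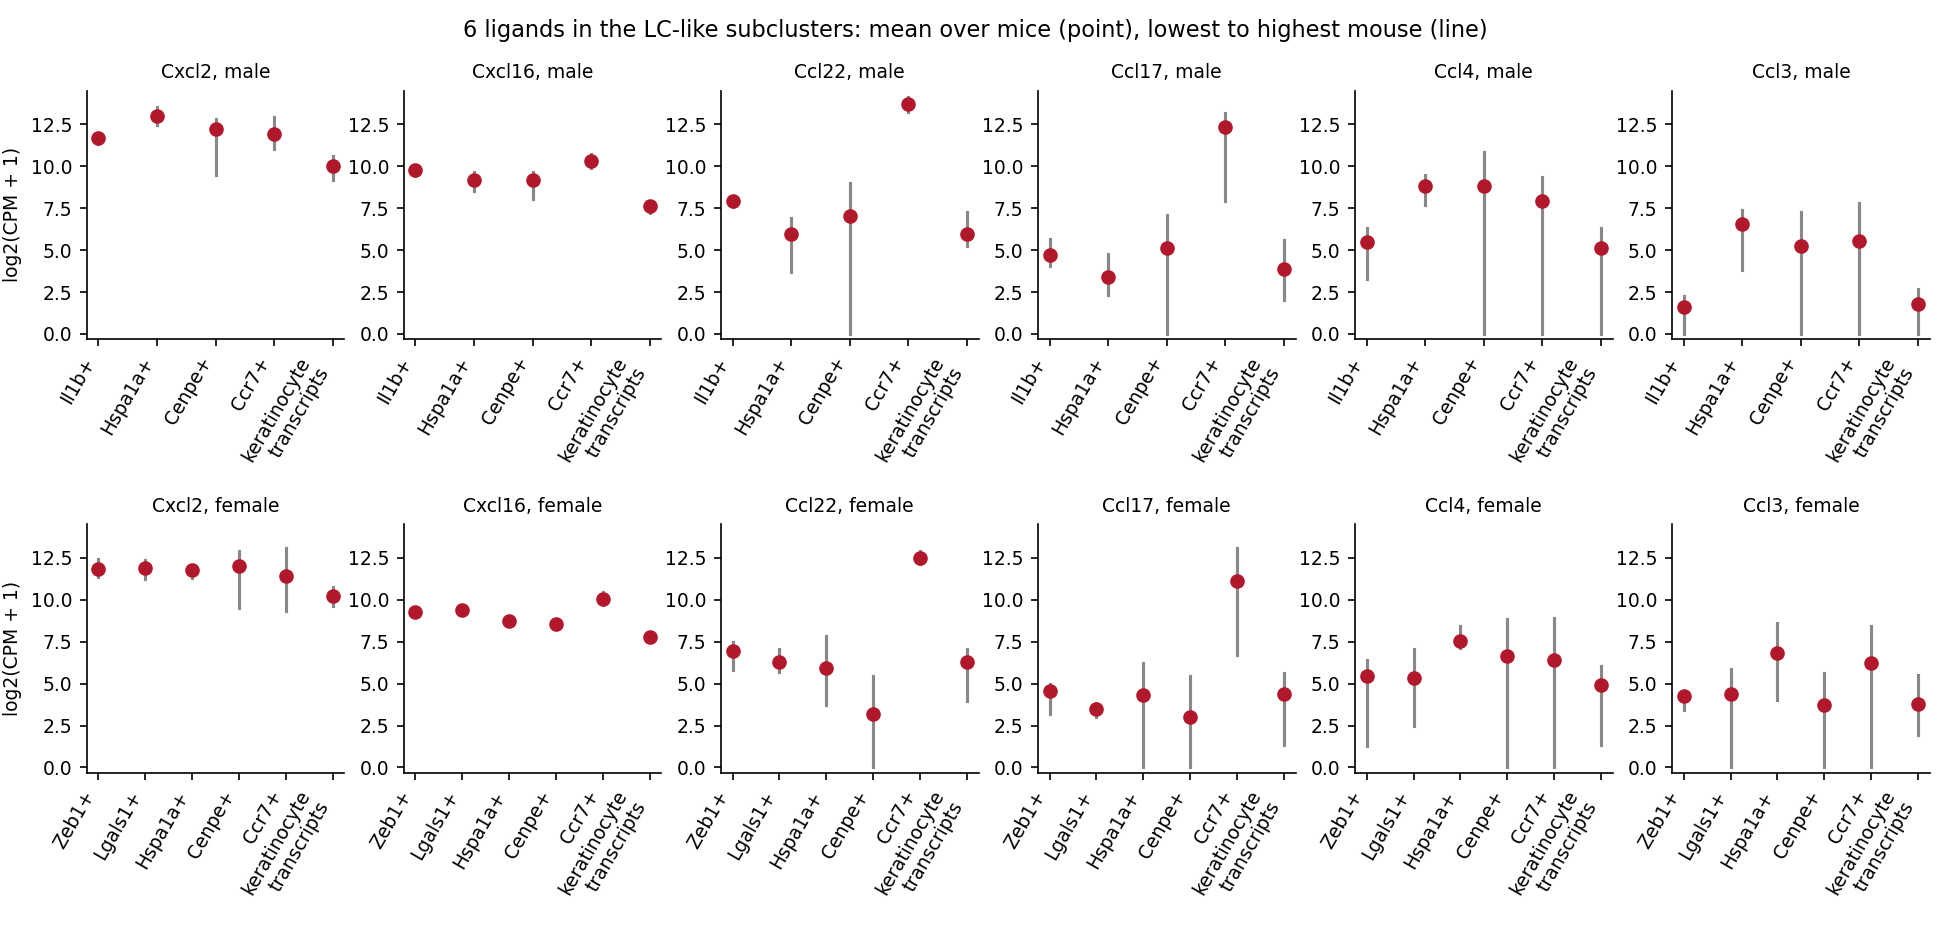
Level of 6 ligands (log2 of CPM + 1) in each LC-like state of males and females; points are means over mice and lines run from the lowest to the highest mouse. Ccl22 and Ccl17 peak in the Ccr7+ state (Ccl22 mean 13230.5 CPM in males and 5760.0 in females), and Ccl4 is high in the Hspa1a+ state (mean 448 and 187 CPM), with a mean of 456 in male Cenpe+ cells that rests on 1 mouse.

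Cxcl16, a membrane-bound ligand of CXCR6 that can be shed, held 499 ± 84.8 CPM in male and 474 ± 51.4 in female LC-like cells, with a UMI in 89.7% and 92.7% of cells. The named keratinocyte classes held 53.8 ± 6.50 and 40.7 ± 5.46 CPM, and LC-like cells lay apart from the next class in both sexes. The named keratinocyte classes, with far more cells, supplied 77.0% of Cxcl16 UMIs in males and 78.5% in females, and the Wfdc17 cluster a further 14.3% in males. Among LC-like states the Ccr7+ cells were highest, at 1270.2 ± 306 and 1039.5 ± 224 CPM. Cxcr6, its receptor, was seen in T cell-like cells at 308 ± 90.9 CPM in males and 153 ± 38.0 in females.

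**Figure D2:**
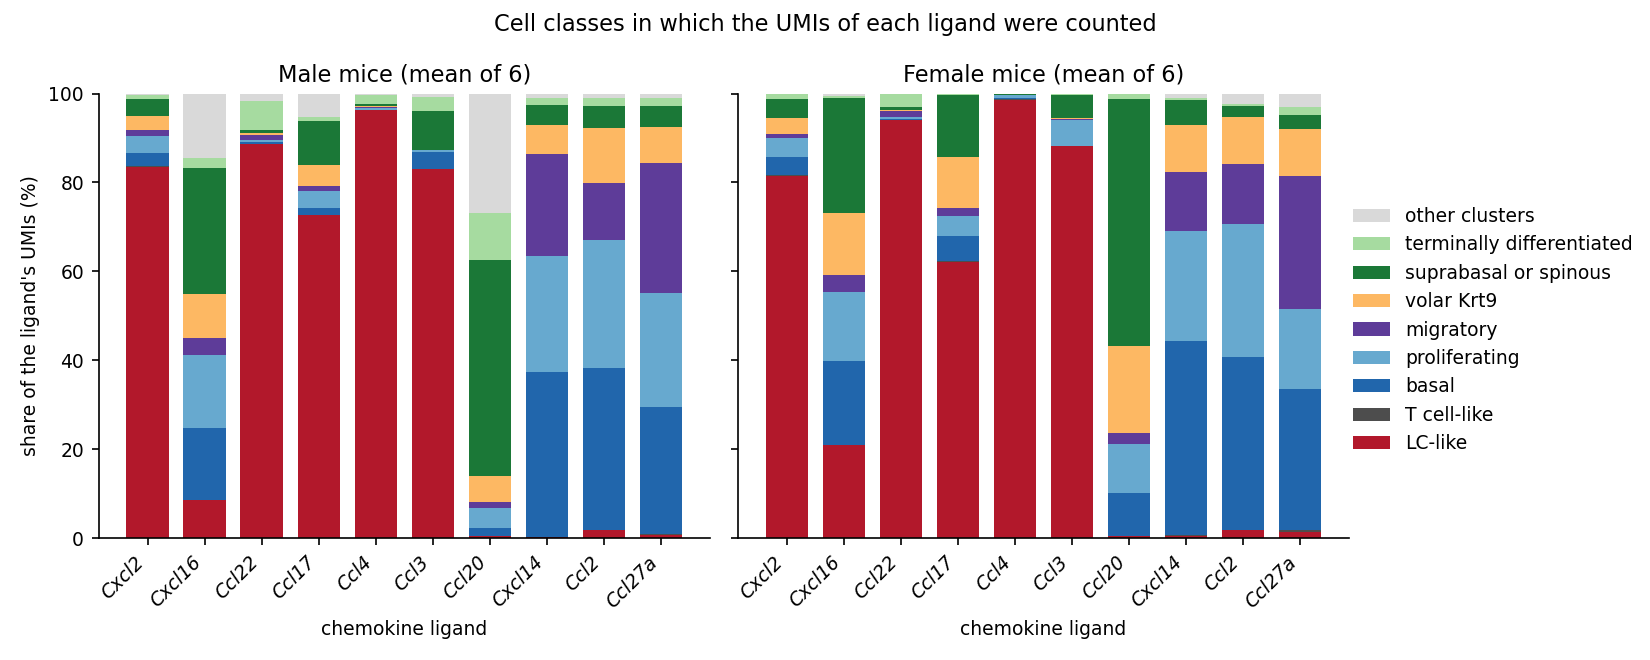
Share of each ligand's UMIs (percent, mean of 6 mice per sex) that came from each cell class, as stacked bars. LC-like cells fill most of the bars of Cxcl2, Ccl22, Ccl17, Ccl4 and Ccl3 (83.5% of Cxcl2 in males), whereas Cxcl16 is mostly keratinocyte (77.0% in males) and Cxcl14, Ccl2 and Ccl27a nearly wholly so.

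The keratinocyte ligands differed in level between the keratinocyte classes. Ccl20, the sole known chemokine ligand of CCR6, was highest in suprabasal or spinous cells among the named classes of both sexes. In males it was at 829 ± 134 CPM in the Wfdc17 cluster, 553 ± 92.3 in suprabasal or spinous cells and 445 ± 126 in the terminally differentiated class, neighbours in the order whose ranges overlap, and at 38.3 ± 10.1 in basal cells. In females suprabasal or spinous cells were highest at 211 ± 52.2 CPM, followed by volar cells at 100 ± 35.4, whose range overlaps with theirs (124 to 275 and 30.7 to 131), and proliferating cells at 66.6 ± 24.6. Female basal cells held 52.7 ± 18.9 and terminally differentiated cells 48.7 ± 29.0, neighbours in the order whose ranges overlap. Suprabasal or spinous cells gave 48.6% of male and 55.5% of female Ccl20 UMIs. Ccr6 was read mainly in T cell-like cells, at 46.6 ± 30.1 and 40.5 ± 24.9 CPM.

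Cxcl14, a chemokine of resting epithelia, was highest in migratory and basal cells. Migratory cells, a cluster with Krt79, Krt17 and Defb6, held 466 ± 99 CPM in males and 461 ± 101 in females. Basal cells held 226 ± 20.8 and 441 ± 94.7, proliferating cells 150 and 265, and suprabasal or spinous cells 15.9 and 38.5. In males migratory cells lay apart from basal cells, and in females the ranges of both overlapped. A Cxcl14 UMI was present in 59.0% of male and 84.6% of female basal cells. Ccl2, which draws monocytes through CCR2, was highest in migratory (95.8 ± 31 CPM), basal (85.9 ± 31) and proliferating cells (65.0) of males, whose ranges overlap. The female values were 34.2 ± 11.4, 27.0 ± 6.03 and 22.8, with 52.6 ± 30.2 in the Lhx2 cluster. Male LC-like cells came next for Ccl2 at 61.6 ± 28.9 CPM, in a range that overlaps with that of proliferating cells, and female ones held 12.7 ± 8.19. Male Hspa1a+ LC-like cells held 143 ± 57.2 CPM, above the mean of every male class, and female ones 24.6 ± 16.1. The mean of 159 CPM in male Ccr7+ cells was 84.5 without RD 3. Ccl27a, a keratinocyte ligand of CCR10 on skin-homing T cells, stood at 25.8 ± 8.28 and 31.8 ± 11.6 CPM in migratory cells and at 7.63 and 9.36 in basal cells. Ccl27a has 3 annotated rows, of which the pair on scaffolds outside the assembled chromosomes had 0 UMIs, and its gene overlaps Il11ra1 on the other strand.

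LC-like cells appeared to hold Ccl20 (135 CPM in males and 28.2 in females) and Cxcl14 (23.9 and 51.1). Most of this lay in 1 subcluster with keratinocyte transcripts, 258 male and 312 female cells of which 97.3% and 96.2% had doublet scores above the cut. Without it Cxcl2 was at 4989 CPM in males and 3650.5 in females and Cxcl16 at 751 and 594, while Ccl20 was at 10.8 and 1.88 CPM and Cxcl14 at 1.32 and 2.58. The other chemokine genes of the list gave a different set per cell type. LC-like cells also held Cxcl1 (193 CPM in males, 88.7 in females) and Cxcl10 (89.2 and 7.37), with Pf4 (16.9) next in males and Cx3cl1 (13.2) and Ccl25 (11.9) among the first 3 in females. T cell-like cells held Xcl1 (362 and 108 CPM), a T cell and NK cell product, and Cxcl10 (314 and 40.9). Pf4 averaged 249 ± 610 CPM in male T cell-like cells, where 1 mouse held 1495, and Ccl1 47.4 in female ones. Among receptors, LC-like cells held Ccrl2 (169 and 89.9 CPM), Ccr1 (29.6 and 24.2) and Ccr7 (22.2 and 47.5). In T cell-like cells, besides Cxcr6, the highest were Ccr2 (158) and Ccrl2 (96.4) in males and Cxcr4 (93.5) and Ccr8 (61.7) in females.

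**Figure D3:**
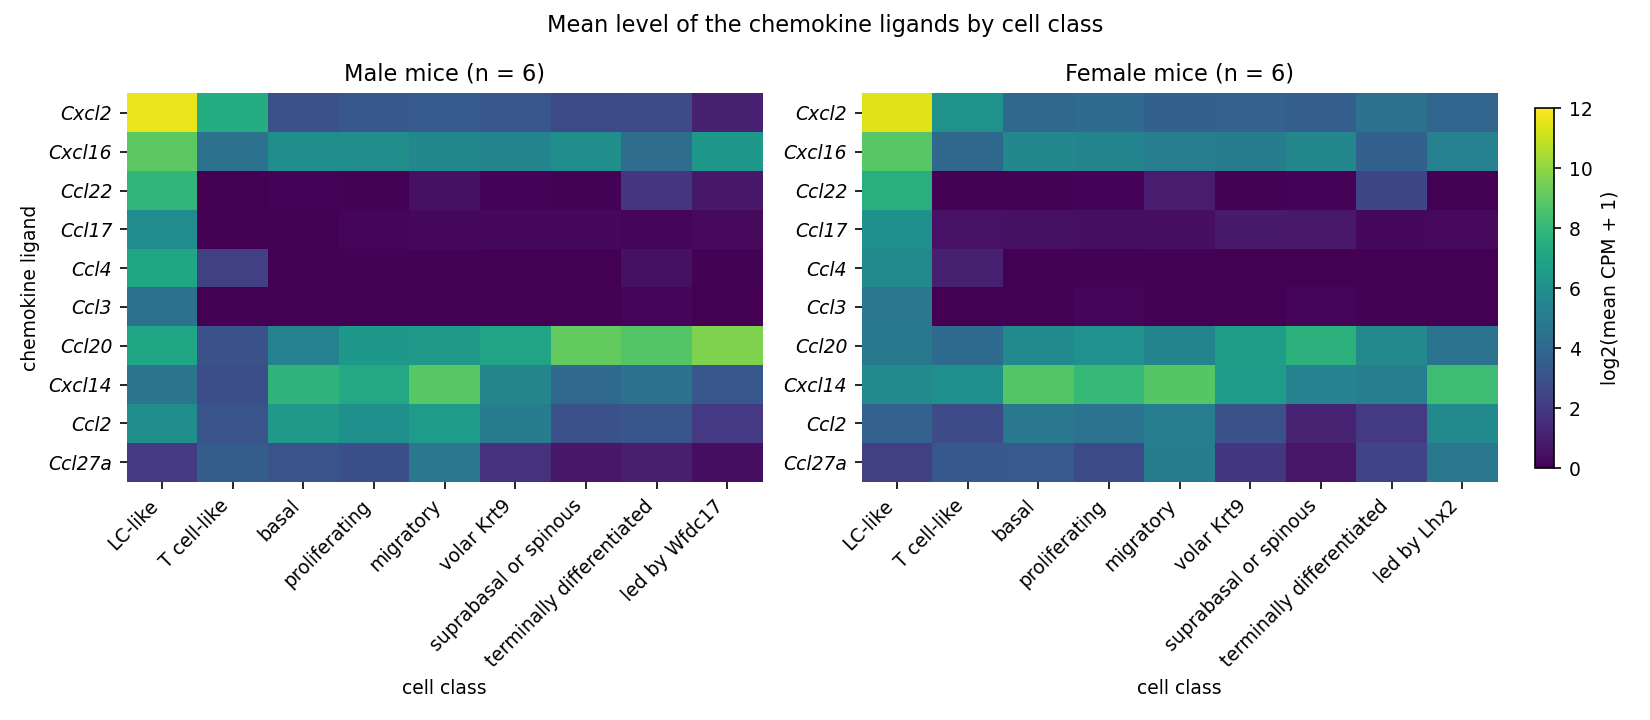
Level of the 10 ligands (log2 of mean CPM + 1, colour) in each cell class of males and females (n = 6 mice each), to be read along a row. LC-like cells are brightest for Cxcl2, Cxcl16, Ccl22, Ccl17, Ccl4 and Ccl3; among named classes Ccl20 is brightest in suprabasal or spinous cells (553 CPM in males and 211 in females), with terminally differentiated cells at 445 in males and 48.7 in females, and Cxcl14 in migratory and basal cells (466 and 226 CPM in males).

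The likeness of a gene's pattern to that of a member was measured as Pearson's r of log2(CPM + 1) over 14 classes and LC states per sex, among 10199 genes, with the lower r of both sexes deciding the order. All genes share the libraries and their depth, and the r is a description. Cxcl2 was most like Tyrobp (0.987 in males and 0.989 in females), Mfge8 and Nlrp3. Cxcl14 was most like Gas1 (0.983 and 0.983), Cav1 and Krt14, and Ccl20 like Evpl (0.958 and 0.974), Lypd3 and Tyro3. Ccl17 was nearest to Mcemp1 (0.968 and 0.957), Gm13546 and Itga4, and Ccl22 to Pirb (0.947 and 0.944), Mcemp1 and Adap2os. Ccl4 resembled Xlr (0.977 and 0.978), Hlx and Napsa, and Ccl3 resembled Mgl2 (0.956 and 0.949), Adam23 and Gm34342. Cxcl16 followed Lrrk1 (0.974 and 0.977), Cst3 and Myo1c. Ccl2 followed Pdgfa (0.877 and 0.833), Fpgs and C1qtnf12, and Ccl27a followed Rcn2 (0.887 and 0.780), Wdr6 and Sept9. Between members, r was 0.974 and 0.956 for Ccl17 with Ccl22, and 0.946 and 0.970 for Ccl3 with Ccl4.

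For the diets, UMIs were summed per mouse and class and tested with edgeR's quasi-likelihood test over all genes, and a call means a Benjamini-Hochberg adjusted p under 0.05. The clusters led by Wfdc17, Lars2 and Lhx2 had no comparison of their own and entered only the sums over all cells. No member was called in any of the 18 comparisons of HFD with RD (119 member tests). At an unadjusted p under 0.05 there were 29 (16 higher and 13 lower on HFD), which is 24.4% of the member tests beside 13.5% of 202823 tests over all genes. DESeq2 called 10 of the member tests, beside 2.38% of the tests over all genes. These tests share cells and mice and do not count as separate evidence. Among all genes edgeR called 0.0% in each of the 9 male comparisons. In females it called 0.0664% in LC-like cells, 0.0% in T cell-like and terminally differentiated cells, 0.385% in migratory, 0.884% in basal, 1.61% in proliferating, 2.31% in volar and 4.4% in suprabasal or spinous cells, and 2.36% over all cells.

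In male LC-like cells the level of Cxcl2 was 3221, 2936 and 4472 CPM in the 3 RD mice and 3311, 2325 and 2872 CPM in the 3 HFD mice. The highest value was an RD mouse and the lowest an HFD mouse, and the groups overlapped. The log2 fold change of HFD over RD was -0.34 ± 0.188 (SE, adjusted p = 0.983). Cxcl16 was at 500, 500 and 645 CPM on RD and at 516, 394 and 441 on HFD (-0.30 ± 0.156, adjusted p = 0.983). Ccl22 was at 171, 170 and 420 CPM on RD and 305, 142 and 173 on HFD, with RD 3 well above the rest. For Ccl17 the RD values were 42.0, 26.6 and 150 and the HFD values 43.2, 12.9 and 61.3, with the same RD mouse highest. Ccl4 stood at 115, 94.7 and 267 CPM on RD and at 157, 55.7 and 137 on HFD, and here too RD 3 was highest. Ccl3 was low throughout, at 20.5, 16.5 and 23.2 on RD and 47.6, 11.3 and 7.04 on HFD. Ccl2 was at 94.5, 28.2 and 100 CPM on RD and at 48.7, 52.4 and 45.8 on HFD, so that the HFD mice lay between the RD mice. Ccl20 was at 221, 67 and 76.8 CPM on RD and at 43.2, 287 and 115 on HFD, and Cxcl14 at 31, 45.2 and 12.1 on RD and 2.21, 12.9 and 40.1 on HFD, both mostly in the subcluster with keratinocyte transcripts. None of the 10 members had groups that did not overlap, beside 9.41% of all genes. The median log2 fold change was -0.34 over the 9 members tested, 1 of them positive, and 0.00060 over all genes tested. None of these 9 reached an unadjusted p under 0.05, DESeq2 called none of them, beside 0.0246% of all genes, and Ccl27a did not pass the filter on low counts. Without the subcluster with keratinocyte transcripts, a choice made after seeing the data, Cxcl16 was at 840, 821 and 899 CPM on RD and at 647, 594 and 707 on HFD. All 3 HFD mice were then lower, while Cxcl2 still overlapped (5815, 4717 and 6160.4 on RD, 4279, 3971 and 4990 on HFD), and edgeR called no member. Cxcl16 was 1 of 9 members without overlap there, beside 12.1% of all genes.

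In female LC-like cells Cxcl2 was at 2893, 1726 and 2815 CPM on RD and at 2545, 4151 and 3037 on HFD. HFD 2 was the highest and RD 2 the lowest, and the groups overlapped (0.38 ± 0.213, adjusted p = 0.605). Ccl2, low in these cells, was at 3.28, 5.25 and 11.8 CPM on RD and at 11.4, 23.7 and 20.9 on HFD (1.34 ± 0.407, adjusted p = 0.294). The groups touched, since RD 3 was just above HFD 1. The subcluster with keratinocyte transcripts held 69.7% of these Ccl2 UMIs, and without it Ccl2 was at 3.50, 2.96 and 3.75 on RD and at 3.31, 9.04 and 13.1 on HFD, with HFD 1 inside the RD range. Ccl3 was at 41.1, 45.5 and 18.3 CPM on RD and at 13.0, 21 and 20.9 on HFD (-0.94 ± 0.314, adjusted p = 0.338). Ccl2 and Ccl3 were the members at an unadjusted p under 0.05 here, beside 9.73% of all genes. Ccl4 stood at 45.1, 93.7 and 49.6 CPM on RD and at 20.5, 59.0 and 40.8 on HFD, and the groups overlapped. Cxcl16 was steady, at 498, 445 and 489 on RD and 412, 556 and 442 on HFD (-0.03 ± 0.126). Ccl22 was at 200, 232 and 125 on RD and 152, 280 and 106 on HFD, and Ccl17 at 36.4, 78.4 and 25.9 on RD and 35.1, 196 and 15.4 on HFD, with HFD 2 highest for both. Ccl20 was at 11.3, 21.4 and 31.8 CPM on RD and at 20, 18.5 and 66.2 on HFD, and Cxcl14 at 36.0, 56.9 and 61.2 on RD and 58.0, 62.2 and 32.2 on HFD, both overlapping. Only Ccl27a had groups that did not overlap (4.01, 5.25 and 4.51 CPM on RD above 3.38, 3.14 and 2.27 on HFD), 1 of 10 members beside 15.0% of all genes, and at this level most of its UMIs lay in the subcluster with keratinocyte transcripts. The median was -0.02 over the 10 members, 4 of them positive, and -0.0010 over all genes tested. DESeq2 called none of them, beside 0.446% of all genes.

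**Figure D4:**
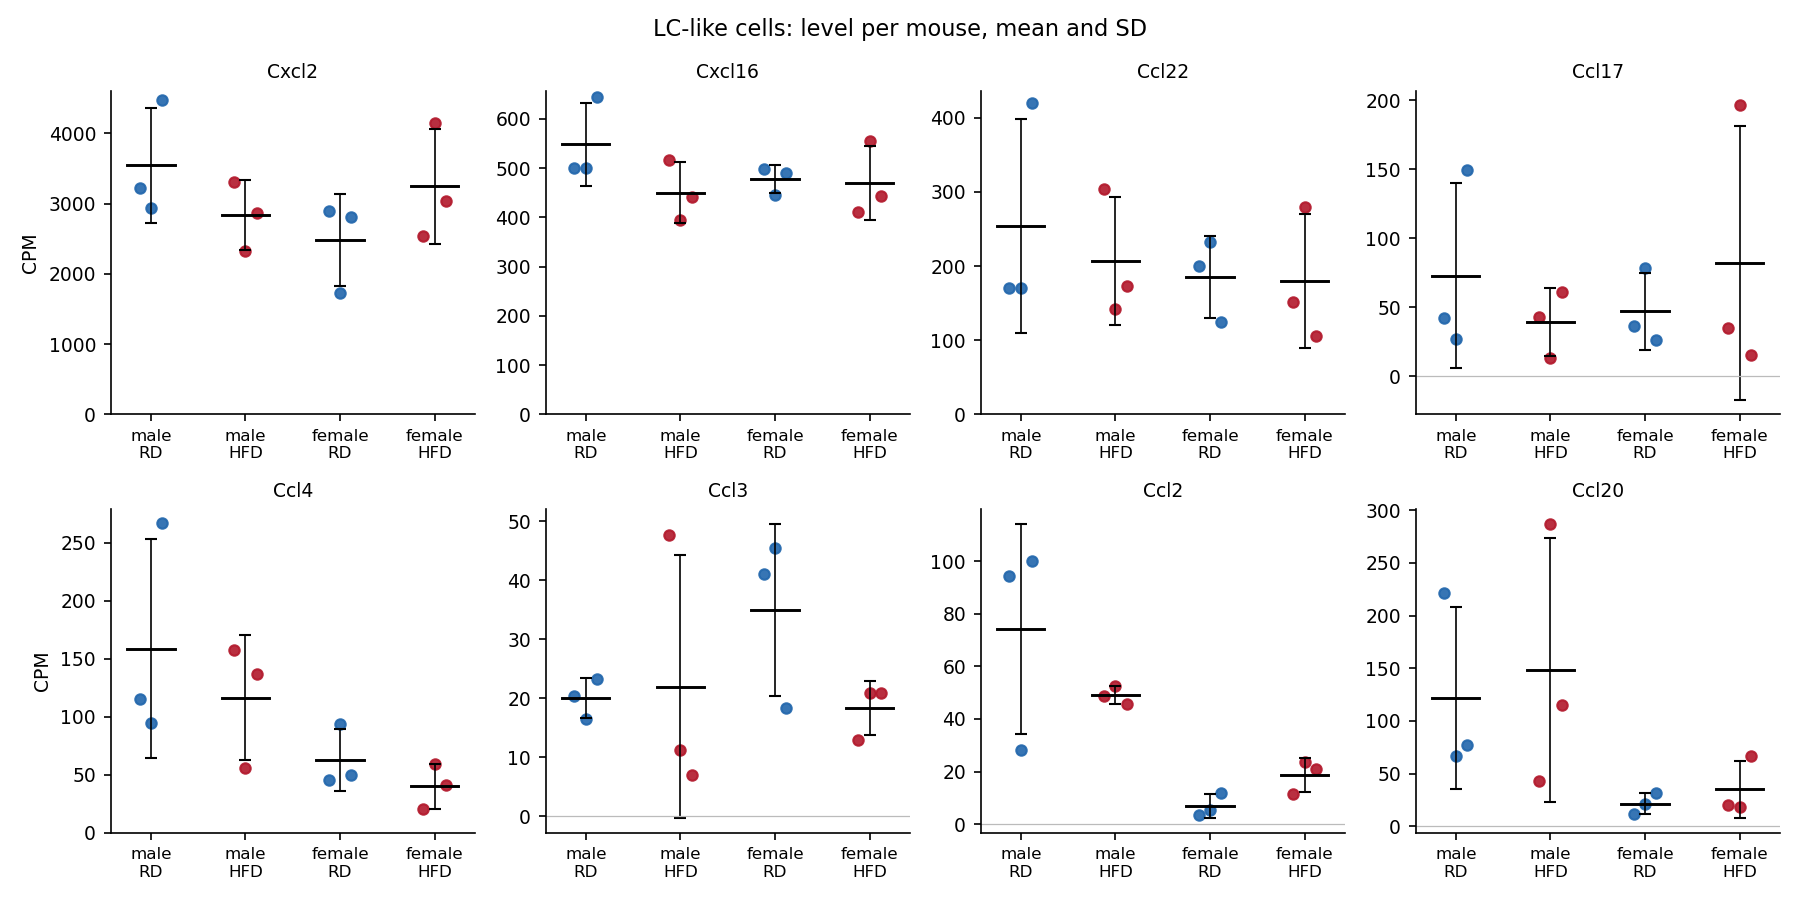
Level of 8 ligands (CPM) in LC-like cells of each mouse, RD in blue and HFD in red, for males and females; bars show the mean and SD of 3 mice. Every male panel overlaps, as for Cxcl2 (2936 to 4472 on RD and 2325 to 3311 on HFD), and female Ccl2 lies at 3.28 to 11.8 on RD and 11.4 to 23.7 on HFD, which did not pass the test and rests to 69.7% on UMIs of the subcluster with keratinocyte transcripts.

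The LC-like states were not tested across genes, and their values are a description. In male Hspa1a+ cells Cxcl2 was at 11734, 8839 and 8325 CPM on RD and at 7579, 5515 and 7213 on HFD, all 3 HFD mice below all 3 RD mice. Ccl22 was at 111, 79.0 and 120 there on RD and 19.9, 11.9 and 26.4 on HFD, and Cxcl16 at 673, 623 and 796 on RD and 469, 368 and 577 on HFD, both again lower in every HFD mouse. These were 3 of the 7 members with 10 or more UMIs in the state, beside 11.2% of all genes. Ccl4 overlapped, at 707, 469 and 407 on RD and 553, 202 and 348 on HFD. In female Hspa1a+ cells Ccl4 was at 153, 349 and 187 CPM on RD and 149, 147 and 138 on HFD, and Cxcl2 at 2648, 2443 and 4019 on RD and 3955, 4285 and 3851 on HFD. Ccl4 was the 1 of 7 members without overlap there, beside 12.5% of all genes, with HFD 1 just below RD 1. In female Ccr7+ cells Cxcl2 was at 626, 976 and 1096 CPM on RD and at 3739, 1553 and 8577 on HFD, higher in each HFD mouse but from 3 to 10 cells a mouse, 1 of 6 members without overlap beside 10.2% of all genes. Ccl22 in those cells overlapped (4972, 5341 and 7477 on RD, 5487, 6766 and 4517 on HFD). With 3 mice against 3 an exact permutation test cannot go below 0.1. The Hspa1a+ state made up 10.2% ± 2.89 of LC-like cells on RD and 15.2% ± 1.24 on HFD in females, and the Lgals1+ state 23.4% and 16.9% (2-sided exact permutation p = 0.1 for each, the smallest possible), while the other states of both sexes gave exact p from 0.3 to 1.0. Beside this, the 11 immediate early and heat shock genes of the list summed to 6310 to 9390 CPM on RD and 9134 to 11144 on HFD in female LC-like cells. There 11 of 11 fold changes were positive (median 0.18) and none was called. Of these, 3 were at an unadjusted p under 0.05, beside 9.73% of all genes. In males the sums were 9124 to 10648 on RD and 9012 to 10939 on HFD. Their part in the ligand values was not tested.

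Over all kept cells male Cxcl2 was at 44.8, 47.6 and 47.5 CPM on RD and at 32.5, 29.0 and 35.5 on HFD, and every HFD mouse lay below every RD mouse (-0.47 ± 0.0725, adjusted p = 0.130). In such sums fewer cells of a type and less RNA per cell cannot be told apart. LC-like cells made up 1.90%, 2.79% and 1.69% of the cells on RD and 2.09%, 2.00% and 1.84% on HFD. Male Cxcl14 was at 101, 106 and 126 CPM on RD and at 87.5, 78.3 and 88.5 on HFD, again without overlap (-0.32 ± 0.0882, adjusted p = 0.328). These were 2 of 10 members without overlap, beside 15.3% of all genes. The same 2 were at an unadjusted p under 0.05, beside 9.05% of all genes. DESeq2 called 1 of them, Cxcl2, beside 1.26% of all genes. The other 8 members had log2 fold changes from -0.77 (Ccl17) to 0.59 (Ccl2), with adjusted p from 0.576 to 0.953. In females Ccl27a was at 5.32, 4.01 and 5.57 CPM on RD and at 6.90, 6.60 and 7.50 on HFD (0.45 ± 0.127, adjusted p = 0.0968). Ccl3 was at 0.990, 0.826 and 0.521 on RD and at 0.492, 0.515 and 0.422 on HFD (-0.76, adjusted p = 0.134), and without doublets RD 3 (0.513) lay below HFD 1 (0.549) and HFD 2 (0.534). These were also 2 of 10 without overlap, beside 23.9% of all genes, and the 2 at an unadjusted p under 0.05, beside 20.6%. DESeq2 called 1 of them, Ccl27a, beside 8.05% of all genes. The other 8 had log2 fold changes from -0.71 (Ccl4) to 0.45 (Ccl17), with adjusted p from 0.277 to 0.882. Female Cxcl2 overlapped, at 76.0, 41.1 and 82.7 CPM on RD and 70.6, 110 and 84.5 on HFD.

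In keratinocytes the lowest adjusted p of any member was that of Cxcl2 in male terminally differentiated cells. It was at 10.5, 5.39 and 12.8 CPM on RD and at 1.80, 2.46 and 3.13 on HFD (-1.65 ± 0.372, adjusted p = 0.0525). Every HFD mouse was lower, in a class where 29.4% of all genes had groups that did not overlap, 31.5% had an unadjusted p under 0.05 and edgeR called none. Genes of LC-like cells were also read there, with Cd74 at 35.0, 29.9 and 24.1 CPM on RD and 14.2, 36.4 and 5.34 on HFD. Ccl4 was at 1.24, 1.16 and 0.294 on RD and had no UMI on HFD. Doublets were marked in 29.2%, 29.2% and 20.3% of the RD and 12.6%, 21.1% and 21.5% of the HFD cells of this class. The share marked in a whole library was set by its barcode count, so these values cannot be read as a diet effect. Over all kept male cells it was 11.99%, 13.01% and 7.69% on RD and 5.89%, 8.36% and 9.05% on HFD. Removing doublets thus took unequal shares from the libraries. Without these doublets Cxcl2 was at 1.75, 1.46 and 15.9 CPM on RD and at 1.65, 1.67 and 3.05 on HFD, so that the groups overlapped and the difference rested on RD 3 (-1.46 ± 0.83, adjusted p = 0.388). Male suprabasal or spinous cells gave 9.71, 5.22 and 8.06 CPM on RD and 2.10, 2.97 and 4.62 on HFD for the same gene, also without overlap, beside 13.1% of all genes (-1.23 ± 0.272, adjusted p = 0.335). Female proliferating cells went the other way, with 9.48, 8.50 and 12.4 CPM on RD and 15.2, 18.9 and 38.6 on HFD (1.24 ± 0.309, adjusted p = 0.0701). At these levels few keratinocytes had a Cxcl2 UMI (2.98% of male and 5.66% of female cells), and the part of free RNA was not tested. In female terminally differentiated cells Cxcl2 was at 7.90, 67.2 and 14.9 on RD and 15.7, 3.20 and 17.8 on HFD, where RD 2 stood apart (-1.32 ± 0.546, adjusted p = 0.672), and where without doublets RD 2 held 1.16. Female suprabasal or spinous cells held 8.72, 9.29 and 6.39 on RD and 8.96, 10.5 and 25.2 on HFD (0.83 ± 0.337, adjusted p = 0.172), with HFD 3 far above the rest.

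Cxcl14 was lower in every HFD mouse than in every RD mouse in 3 male classes, in which 12.1% to 14.0% of all genes did not overlap. In suprabasal or spinous cells it was at 20.6, 18.1 and 21.5 CPM on RD and 9.84, 12.3 and 13.3 on HFD (-0.73 ± 0.114, adjusted p = 0.139). Without doublets these were 12.7, 7.23 and 16.1 on RD and 6.25, 6.03 and 7.26 on HFD, where the groups touched. In volar cells it was at 55.6, 42.4 and 59.9 on RD and 35.5, 33.8 and 28.0 on HFD (-0.65 ± 0.136, adjusted p = 0.564), and in proliferating cells at 162, 150 and 198 on RD and 146, 133 and 109 on HFD (-0.39 ± 0.123, adjusted p = 0.342). In the classes where it was highest the groups overlapped, with 537, 406 and 624 on RD and 466, 360 and 401 on HFD in migratory cells (-0.31 ± 0.149, adjusted p = 0.941) and 216, 229 and 255 on RD and 240, 219 and 195 on HFD in basal cells (-0.05 ± 0.0916). In females basal cells held 462, 553 and 501 CPM on RD and 454, 391 and 281 on HFD (-0.43 ± 0.156, adjusted p = 0.234). Proliferating cells held 286, 287 and 321 on RD and 273, 241 and 180 on HFD (-0.39 ± 0.128, adjusted p = 0.131). In neither female class did the groups overlap, beside 18.9% and 21.2% of all genes, and HFD 3 was lowest in both. Female volar cells held 106, 113 and 126 CPM on RD and 106, 74.1 and 66.6 on HFD, where HFD 1 lay just above RD 1 and no member was without overlap, beside 21.9% of all genes (-0.51 ± 0.152, adjusted p = 0.107).

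Ccl2 in male migratory cells was at 74.6, 52.2 and 91.0 CPM on RD and at 99.2, 140 and 118 on HFD (0.75 ± 0.181, adjusted p = 0.504). The groups did not overlap, beside 10.7% of all genes, whereas in male basal cells they did (84.0, 37.1 and 89.2 on RD, 132, 74.1 and 99.5 on HFD). Female migratory cells held 16.7, 38.9 and 25.3 on RD and 35.6, 48.4 and 40.5 on HFD (0.60 ± 0.243, adjusted p = 0.275), and the groups overlapped. Without doublets they were apart, at 17, 28.5 and 21.7 on RD and 38.5, 45.8 and 41.1 on HFD, and Ccl2 was called there (0.89 ± 0.159, adjusted p = 0.0495), beside 0.38% of all genes. Ccl2 also overlapped in male proliferating cells (65.4, 24.0 and 57.9 on RD, 109, 75.5 and 57.4 on HFD) and in female ones (13.7, 20 and 21 on RD, 20.6, 30.6 and 30.8 on HFD), with adjusted p = 0.519 and 0.137. Ccl27a in male migratory cells was at 20.6, 17.0 and 23.3 CPM on RD and at 37.9, 21.8 and 34.1 on HFD (0.67 ± 0.193, adjusted p = 0.720), with HFD 2 inside the RD range. In female migratory cells it was at 24.5, 15.8 and 29.3 on RD and at 39.7, 32.4 and 49.0 on HFD, without overlap, beside 19.0% of all genes (0.77 ± 0.196, adjusted p = 0.103). Ccl27a in male basal cells was at 5.99, 6.95 and 6.39 on RD and 10.1, 5.72 and 10.6 on HFD (0.50 ± 0.195, adjusted p = 0.731). Cxcl16 in female migratory cells was at 26.9, 34.5 and 28.7 on RD and 31.1, 39.6 and 43.2 on HFD (0.31 ± 0.138, adjusted p = 0.318), and both overlapped. Ccl20 in male suprabasal or spinous cells was at 661, 407 and 559 CPM on RD and 501, 636 and 555 on HFD, and the groups overlapped (0.09 ± 0.158, adjusted p = 0.957). In male basal cells, where it was low, it was at 37.3, 19.9 and 36.6 on RD and 42.5, 44.5 and 48.9 on HFD (0.58 ± 0.188, adjusted p = 0.639), and in volar cells at 117, 85.3 and 90.0 on RD and 137, 204 and 124 on HFD (0.72 ± 0.190, adjusted p = 0.595). Both were without overlap, beside 12.5% and 12.1% of all genes. RD 2 was the lowest male in both, and for Ccl2 in basal, migratory and proliferating cells. Its library had a median of 6577 UMIs per kept cell, against 10161 or more in the other male libraries. The part of depth in these values was not tested. In male terminally differentiated cells Ccl20 overlapped, at 466, 359 and 383 on RD and 506, 303 and 655 on HFD (0.59 ± 0.261, adjusted p = 0.148). Female suprabasal or spinous cells held 190, 204 and 248 on RD and 124, 224 and 275 on HFD. The remaining tests of members in these classes, 25 in males and 30 in females, were at an unadjusted p of 0.05 or more, with log2 fold changes from -0.76 to 0.66 and from -1.11 to 0.96.

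DESeq2 called more members than edgeR in the keratinocyte classes. In males it called Cxcl2 and Cxcl14 in suprabasal or spinous cells, beside 0.259% of all genes, Cxcl2 in terminally differentiated cells, beside 6.18%, Ccl2 in migratory cells, beside 0.14%, and Cxcl14 in volar cells, beside 0.0775%, and none in basal and proliferating cells, beside 0.164% and 0.543%. In females it called Ccl2 and Cxcl14 in proliferating cells, beside 3.67%, and Ccl27a in migratory cells, beside 1.62%, and none in basal, suprabasal or spinous, terminally differentiated and volar cells, beside 2.03%, 6.06%, 0.153% and 3.96%.

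**Figure D5:**
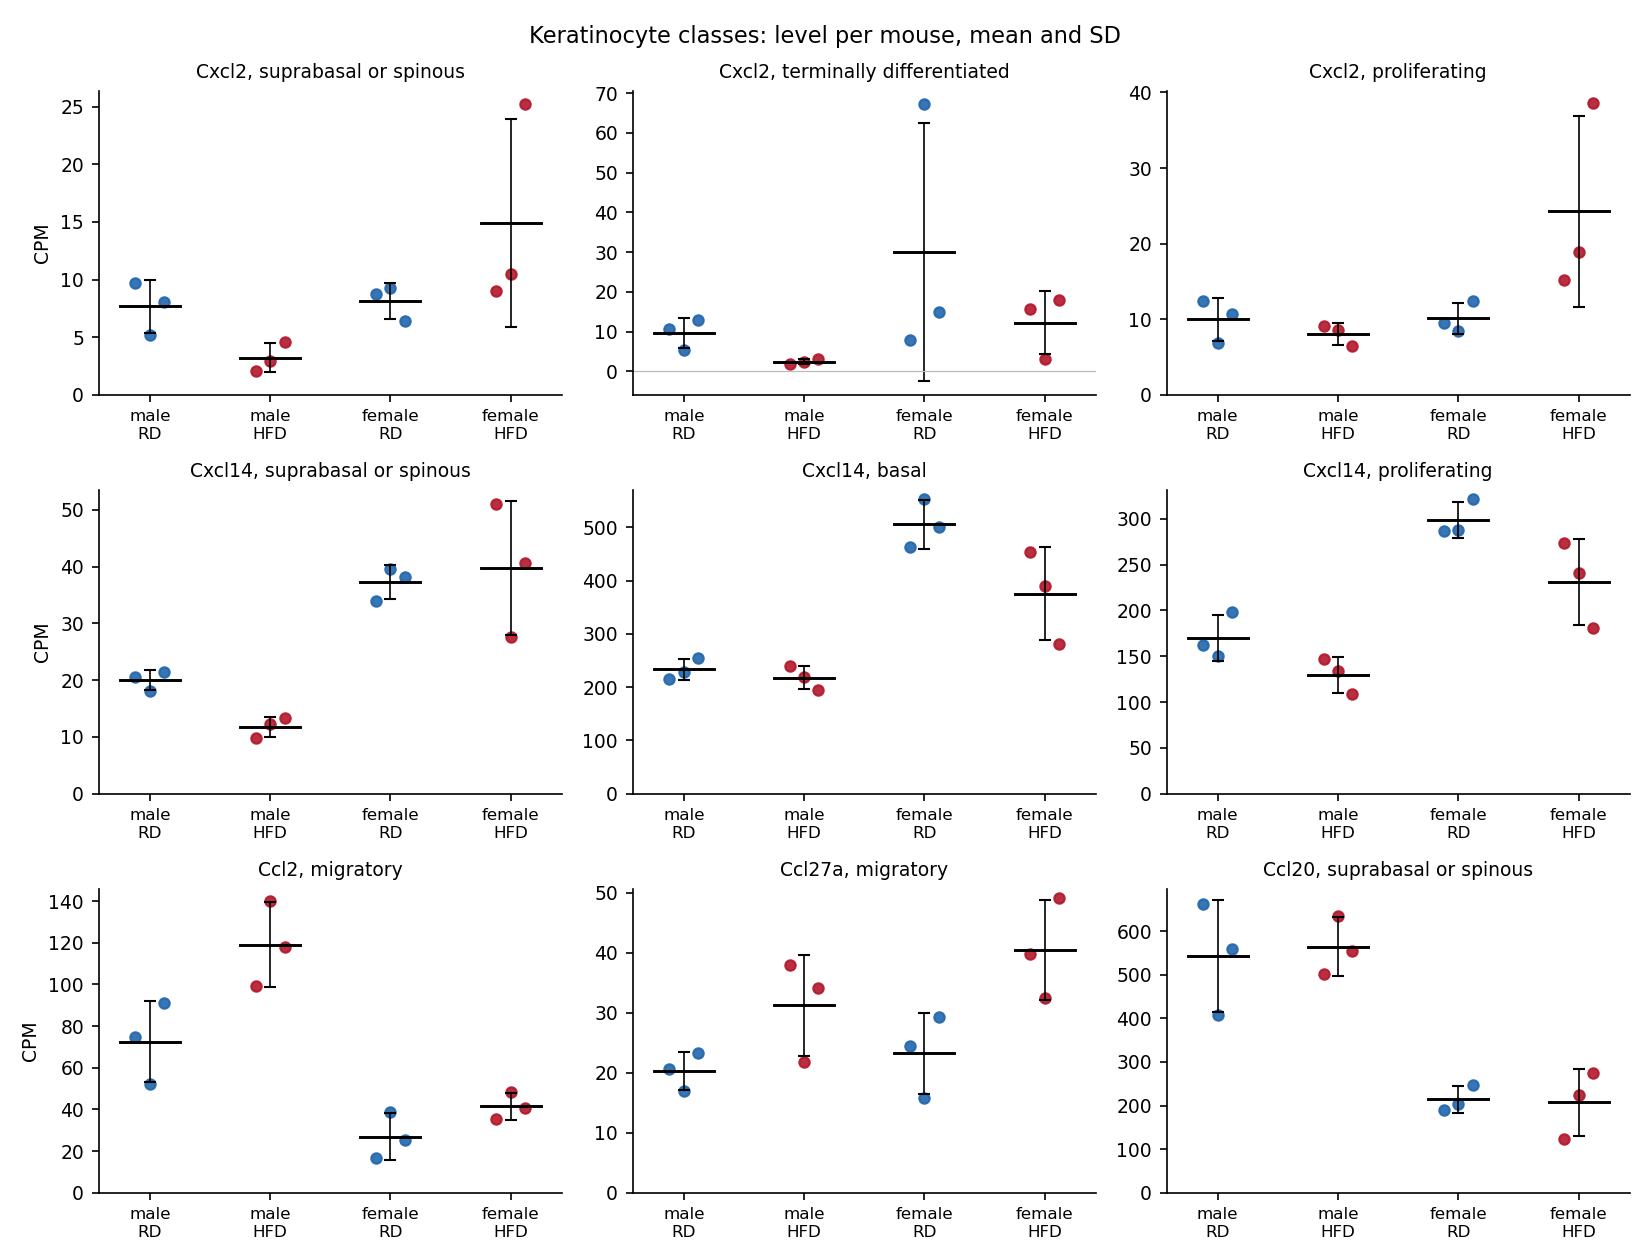
Level (CPM) of Cxcl2, Cxcl14, Ccl2, Ccl27a and Ccl20 in the keratinocyte classes named in each panel, by mouse, RD in blue and HFD in red, with the mean and SD of 3 mice. The groups lie apart in males for Cxcl2 in terminally differentiated cells (5.39 to 12.8 on RD, 1.80 to 3.13 on HFD, but 1.46 to 15.9 and 1.65 to 3.05 without doublets), beside 29.4% of all genes. In females they lie apart for Ccl27a in migratory cells (15.8 to 29.3 on RD, 32.4 to 49.0 on HFD), beside 19.0%. They also lie apart for Cxcl2 in male suprabasal or spinous and female proliferating cells, and for Ccl2 in male migratory cells. For Cxcl14 they do so in male suprabasal or spinous, female basal, and male and female proliferating cells. In the classes of these further panels 10.7% to 21.2% of all genes did not overlap. No panel passed the edgeR test.

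T cell-like cells allowed a test of Cxcl2 in males and of Cxcl2 and Cxcl14 in females, and of no other member. Male Cxcl2 was at 418, 109 and 19.9 CPM on RD and 44.8, 240 and 183 on HFD, female Cxcl2 at 7.40, 56.6 and 48.0 on RD and 112, 134 and 50.6 on HFD. Neither was called (adjusted p = 0.984 and 0.525), and both overlapped. Female Cxcl14 was at 14.8, 150 and 75.1 on RD and 46.4, 75.9 and 28.1 on HFD, also overlapping (-0.84 ± 0.530, adjusted p = 0.795). Female Cxcl2 was the 1 of these at an unadjusted p under 0.05, beside 7.26% of all genes. Female T cell-like cells also held Krt14 at a mean of 2400 CPM (844 to 4286 between mice), and 12.7% of them were marked as doublets. The part of keratinocyte transcripts in their Cxcl14 values was not tested.

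The difference between the diet effects of males and females was tested as an interaction, in which sex stands together with the counting software. No member was called, beside 0.0% of all genes in LC-like cells and 1.1% over all cells. In LC-like cells 2 members were at an unadjusted p under 0.05, beside 5.04% of all genes. They were Ccl2 (-1.91 ± 0.635, male minus female effect, adjusted p = 0.883) and Cxcl2 (-0.73 ± 0.314, adjusted p = 0.970), and DESeq2 called no member. Over all cells Cxcl2 was the 1 member at an unadjusted p under 0.05 (-0.84 ± 0.265, adjusted p = 0.132), beside 15.9% of all genes. DESeq2 called it, beside 5.25% of all genes.

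Over the 18 diet comparisons edgeR called 0.868% and DESeq2 2.38% of all gene tests, and 13.5% were at an unadjusted p under 0.05, which is the background for the related lists. The 25 other ligands in the files had no call in 118 tests (18 higher and 3 lower at an unadjusted p under 0.05, or 17.8%, 3 called by DESeq2). The 13 genes of NF-kB feedback and targets had none in 210 tests (24 higher and 10 lower, or 16.2%, 9 called by DESeq2). In LC-like cells their median log2 fold change was 0.18 in males, with 8 of 13 positive, and 0.19 in females, with 10 of 13 positive. The immediate early and heat shock genes had none in 194 tests (11 higher and 9 lower, or 10.3%, 3 called by DESeq2). The 23 receptors had 2 calls in 113 tests, both of Ccr9, the receptor of Ccl25, in comparisons where edgeR called 4.4% and 2.36% of all genes. Ccr9 fell in female suprabasal or spinous cells (-0.78 ± 0.113, adjusted p = 0.014) and over all female cells (-0.92 ± 0.108, adjusted p = 0.0189). Its level in suprabasal or spinous cells was 9.25 ± 2.63 CPM in females and 7.41 ± 0.903 in males (n = 6 each). Without RD 1, 2 or 3 the adjusted p in female suprabasal or spinous cells was 0.0706, 0.0559 and 0.059, and over all female cells 0.106, 0.063 and 0.0797, with 0.0602 without HFD 3 and 0.0814 with the replicate block.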

How the data were processed

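Single cells of hind paw epidermis were sequenced with 10x Genomics 3' v3.1 chemistry. The deposited files hold raw UMI counts per gene and barcode, which the authors made with Cell Ranger on GRCm38 (mm10); the submitters' notes name Cell Ranger 7.2.0 and Seurat 5.0.0, while the file headers give 6.1.0 for males and 7.2.0 for females. The filter on cells required 200 genes in males and 500 in females, and dropped cells above 6000 genes or above 5% mitochondrial UMIs. Each sex was clustered with Leiden (leidenalg 0.10.2, Python 3.11.15) on 2000 variable genes, 10 principal components and 20 neighbours, without chemokine ligands. Clusters were named from fixed marker lists, and LC-like cells were clustered again. Doublets were scored and stayed in the main analysis. UMIs were summed per mouse and class, filtered with filterByExpr and tested with edgeR 4.0.16 (TMM, quasi-likelihood, R 4.3.3), with DESeq2 1.42.0 as an alternative. The fits were tested on counts simulated with 200 changed genes. In male LC-like cells 56% of 2-fold and 93% of 4-fold changes were called, with 9 false calls. In female LC-like cells these values were 78%, 93% and 8. Over all cells they were 78%, 99% and 14 in males and 72%, 97% and 17 in females. The CPM are computed from the summed counts.

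The members and gene lists were chosen with earlier results of these data known. All 10 members were tested in every comparison in which they passed the filter on low counts. Each is named in LC-like cells, and elsewhere mainly those at an unadjusted p under 0.05, with the others as counts and ranges, although the rule set for names was all members throughout. Of the other ligands and the receptors, those called were named, with the 3 highest in LC-like and T cell-like cells, and of the genes like each member in profile the first 3. The p-values measure the spread between mice as the labels number them. Floors (3 UMIs), and the upper limits given where a class had no UMI, cover counting error only. The SD over mice and the SE of the edgeR fits include the spread between mice. The alternatives were other size factors, DESeq2, no filter on low counts, each mouse left out, the replicate block, doublets removed, marker gates (also at 10% mitochondrial UMIs), LC-like and T cell-like cells with at most 1% of UMIs from 4 keratins and, chosen after seeing the data, LC-like cells without the subcluster with keratinocyte transcripts and the volar class.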

Additional observations from a re-analysis of the deposited data

Results flagged for a closer look

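The diet effect on Ccr9, the receptor of Ccl25, differed between the sexes over all kept cells by a test of the difference itself. The male minus female difference in log2 fold change was 1.07 ± 0.174 (edgeR adjusted p = 0.0202), with a log2 fold change of 0.16 in males (adjusted p = 0.764) and -0.92 ± 0.108 in females. Without male RD 3, male HFD 1 or 2, or female RD 1 or 3 the adjusted p lay between 0.0532 and 0.0663. Sex and counting software cannot be told apart here.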

How the results depend on the processing

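No member was called by the edgeR fit, and this held in each comparison run with DESeq2's size factors in edgeR, marker gates, at most 10% mitochondrial UMIs, at most 1% keratin UMIs or without the subcluster with keratinocyte transcripts. DESeq2's own test called 2 members in male suprabasal or spinous (beside 0.259% of all genes) and female proliferating cells (3.67%). It called 1 in male terminally differentiated (6.18%), migratory (0.14%), volar (0.0775%) and all cells (1.26%). In female migratory (1.62%) and all cells (8.05%) and in the interaction over all cells (5.25%) it also called 1. With no filter on low counts, which changes the genes tested, members were called as follows, each time beside the percentage of all genes called by the same fit. In males 1 was called in LC-like (0.223%) and all cells (0.322%), 2 in proliferating (1.36%), suprabasal or spinous (0.624%) and migratory (0.681%), and 3 in basal (0.872%), terminally differentiated (9.26%) and volar cells (0.671%). In females it was 4 in LC-like (1.34%) and proliferating (3.53%), 2 in migratory (2.8%) and volar (3.56%), and 1 in basal (1.67%), suprabasal or spinous (4.83%) and terminally differentiated cells (0.628%), and in the interaction in LC-like cells it was 2 (0.224%). Without doublets 1, Ccl2, was called in female migratory cells (0.38%). Leaving out a mouse gave 0 to 2 calls in male suprabasal or spinous (RD 2, 0.247%) and terminally differentiated cells (RD 2, 0.0622%, or RD 3, 18.3%), and 0 to 1 in male volar (RD 2, 0.206%), female proliferating (HFD 2, 4.48%) and female volar cells (HFD 1, 0.55%). The causes were not tested. Counts over all genes moved more: in male terminally differentiated cells from 0 to 582 with DESeq2, 1608 without the filter and up to 1800 without 1 mouse, over all female cells from 428 to 1461 with DESeq2 and as few as 2 without 1 mouse, in female LC-like cells from 7 to 47 with DESeq2, 267 without the filter and as few as 0 without 1 mouse, and in the interaction over all cells from 202 to 967 with DESeq2 and as few as 5.

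Same-numbered RD and HFD mice had correlations from -0.283 to 0.125 in male LC-like cells, where the highest of other pairs was 0.345. In female LC-like cells these were -0.166 to 0.0659 (highest other 0.212), and over all female cells -0.113 to 0.0155 (0.238). Over all male cells they were 0.0165, 0.0918 and 0.139, beside 0.0165 for the highest other pair, so that 0.0918 and 0.139 lay above it. Whether same-numbered mice belong together was not tested, and the main fits took the numbers as names only. The replicate block called 2 members, Ccl2 and Cxcl2, in female proliferating (beside 0.363% of all genes) and 1, Ccl27a, in female migratory cells (beside 0.605%) and turned Ccl17 over all female cells to -0.0113. It ended the Ccr9 call over all female cells.

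Log2 fold changes that turned sign were all of members not called. In male LC-like cells they were Ccl3 (0.10 with DESeq2, 0.11 with the gate and 0.11 with the gate at 10% mitochondrial UMIs), Ccl17 (1.19 and 1.15 with these gates), Ccl22 (0.12 and 0.0917) and Ccl20 (-0.0155 with the latter gate). In female LC-like cells they were Ccl17 (-0.46 with either gate), Cxcl14 (0.21 with either gate), Ccl20 (-0.79 at most 1% keratin UMIs) and Ccl22 (0.16 without doublets, and 0.10 over all female cells). Without 1 mouse the ranges were -1.13 to 0.48 for Ccl3, -0.72 to 0.11 for Ccl4, -1.36 to 0.16 for Ccl17, -0.65 to 1.08 for Ccl20 and -0.68 to 0.24 for Ccl22 in male LC-like cells, -0.97 to 0.20 for Ccl3 and -0.14 to 0.0509 for Cxcl16 over all male cells, -0.77 to 1.41 for Ccl17, -0.20 to 1.05 for Ccl20, -0.51 to 0.21 for Ccl22, -0.21 to 0.20 for Cxcl14 and -0.17 to 0.0692 for Cxcl16 in female LC-like cells, and -0.87 to 0.90 for Ccl17 and -0.55 to 0.18 for Ccl22 over all female cells. Of the LC state shares (HFD minus RD, percentage points), the ranges were -2.37 to 6.30 (Il1b+), -3.38 to 6.95 (Hspa1a+), -5.93 to 1.13 (keratinocyte transcripts) and -0.0699 to 1.70 (Cenpe+) in males, and -0.0579 to 5.37 (Zeb1+), -2.39 to 2.15 (keratinocyte transcripts, 0.18 without doublets), -1.04 to 0.17 (Ccr7+) and -0.80 to 0.62 (Cenpe+) in females. Of the values of single genes and shares, 916 kept their direction and side of the threshold or moved by less than the spread between mice, 58 turned sign, 50 passed the threshold that they had missed, 13 no longer passed it and 44 moved by more than that spread. Depth limits the T cell-like class (28 to 87 cells a mouse) and the Ccr7+ state.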
